A study of Mus musculus with 16 samples.

Results

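Gas6 and the TAM receptors Axl, Mertk and Tyro3 were followed in a mouse endothelial culture system with or without VE-cadherin (VEC, the product of Cdh5), at low and high density. The members were all probe sets that the platform annotation gives to these 4 genes, 6 of the 24833 probe sets other than controls on the 2 chips of the series. Gas6 and Axl had 1 probe set each and Tyro3 had 2, all on chip A (MG_U74Av2), while Mertk had 1 on chip A and 1 on chip B (MG_U74Bv2). The genes were chosen by their MAS5 signals in the 4 conditions, the Gas6 signal foremost, so their levels and differences are given as a description with no test. The conditions were VEC-positive confluent, VEC-positive sparse, VEC-null confluent and VEC-null sparse cells. All were kept serum-free for 36 h, in MCDB 131 medium with 1% BSA, before lysis. The labels give all samples the same origin, endothelial cells from murine embryonic stem cells homozygous for a null VE-cadherin allele, and no source used here says how VEC was restored or kept in the VEC-positive cells. The labels say that each cRNA sample, started from 15 µg of total RNA, went onto 2 copies of the chips, and the titles number the arrays of a condition as replicates 1 and 2 (16 arrays in all). These were read here as array copies of 1 cRNA sample, and no source used here names separate cultures. On this reading every SD, SE and p value below measures the spread between array copies, which is technical, and does not cover differences between cultures. The design cannot tell VEC status apart from other differences between the lines.

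Gas6 (growth arrest-specific 6) is a secreted protein whose Gla domain, carboxylated in a vitamin K-dependent step, binds phosphatidylserine on membranes, while its other end binds the receptor tyrosine kinases Tyro3, Axl and Mertk (the TAM family). Protein S, encoded by Pros1 and best known as an anticoagulant, is built in the same way and is a ligand of Tyro3 and Mertk. TAM receptors signal through PI3K and Akt, allow phagocytes to engulf dying cells, restrain cytokine and interferon signalling, and in blood vessels have been linked to endothelial survival and barrier function. Gas6 was first identified among the genes that rise when fibroblasts stop growing.

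The promoters of Gas6 and Mertk are shown because these genes had the clearest density differences of the family, in opposite directions. The windows run from 250 bases before to 50 bases after the annotated start (RefSeq, build GRCm38.p6), at chr8:13494486-13494785 on the minus strand for Gas6 and at chr2:128698665-128698964 on the plus strand for Mertk. Capitals mark the GC box GGGCGG or its reverse complement CCGCCC.
Gas6: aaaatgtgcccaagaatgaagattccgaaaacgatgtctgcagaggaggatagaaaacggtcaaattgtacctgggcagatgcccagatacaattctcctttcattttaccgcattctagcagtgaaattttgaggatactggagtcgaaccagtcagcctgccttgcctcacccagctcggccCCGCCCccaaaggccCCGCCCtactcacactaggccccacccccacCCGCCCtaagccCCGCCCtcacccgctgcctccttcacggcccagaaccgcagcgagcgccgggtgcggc
Mertk: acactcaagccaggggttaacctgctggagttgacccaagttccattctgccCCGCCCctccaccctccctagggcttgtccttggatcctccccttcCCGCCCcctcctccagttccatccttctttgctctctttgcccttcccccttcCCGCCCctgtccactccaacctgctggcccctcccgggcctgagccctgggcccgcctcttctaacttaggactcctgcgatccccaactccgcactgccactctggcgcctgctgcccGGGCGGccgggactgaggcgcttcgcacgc

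Each of these 2 windows held 4 GC boxes, and those of Axl, Tyro3 and Pros1 held 2, 6 and 5. A GC box on either strand was present in 35.7% of all 32851 promoter windows, a share that counts windows and not boxes. GC content was 58.3% in the Gas6 window, 66% in that of Mertk and 60.3% in that of Axl. It was 73.3% in that of Tyro3 and 66.7% in that of Pros1, against a median of 52.7% over all promoters. The part of GC content in the box counts was not tested. The forkhead motif TGTTTAC (in 3.65% of all windows, either strand) and the TEAD motif GGAATG (14.7%) each occurred once in the Axl window and in none of the other 4. The TCF motif ATCAAAG (3.73%) was in none of the 5 windows. These matches describe letters in the window and are not binding sites.

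The cells had endothelial markers on the arrays. Of 13 endothelial markers with a probe set, 12 lay above the chip median in VEC-positive confluent cells, 10 in VEC-positive sparse, 10 in VEC-null confluent and 11 in VEC-null sparse cells, and their summed signal was 55001 to 55987, 22618 to 25814, 56062 to 56340 and 14247 to 14317 in the same order. The summed endothelial signal thus moved with density, as Gas6 did, but single markers differed. Vwf had 2594 and 2439 in VEC-positive confluent cells against 14.4 to 48.2 on the other arrays, and Cldn5 had 5222 and 5008 against 10.2 to 78. In confluent cells Kdr, Flt1, Tek, Eng, Esam, Emcn and Robo4 were instead lower in VEC-positive than in VEC-null cells. In VEC-positive cells the copies of Eng, Emcn and Pecam1 overlapped between the densities. The part of the endothelial markers in the results below was not tested. In bulk RNA, fewer cells of a type and less RNA per cell cannot be told apart. Of 9 markers of macrophages and other blood cells, cells in which Mertk is also used, 3 lay above the chip median in each condition (Cd68, Csf1r and Cd14), and Ptprc, the common leukocyte antigen, had signals between 6.7 and 20.4 on all 8 arrays of its chip. The summed signal of these blood cell markers was 1029 and 1103 in VEC-positive confluent, 1108 and 1235 in VEC-positive sparse, 1500 and 1886 in VEC-null confluent and 1003 and 922.2 in VEC-null sparse cells. Of 11 smooth muscle and fibroblast markers 2 lay above the chip median in VEC-positive confluent cells and 3 in each other condition, with summed signals between 1590 and 2132. Single markers of this list moved in different ways. Acta2 had 6.4 and 4.7 in VEC-positive confluent and 128.8 and 137.4 in VEC-positive sparse cells. In VEC-null cells it had 120.1 and 125.1 when confluent and 357.7 and 385 when sparse. Dcn had 570.6 and 602.1, 408 and 462.5, 242 and 220.4, and 88.2 and 99.7 in the same order. Pdgfrb had 311.3 and 344 in VEC-null confluent cells, against 8.6 to 16.5 on the other arrays. Their part in the results below was not tested. Of 5 epithelial markers 2 lay above it in VEC-positive sparse cells and 1 in each other condition. Their summed signal was 502.2 and 545.5 in VEC-positive confluent, 1241 and 1391 in VEC-positive sparse, 464.7 and 616.8 in VEC-null confluent and 462.2 and 354.5 in VEC-null sparse cells, and the rise in VEC-positive sparse cells came from Krt19 (861.8 and 947.6 there, against 3.3 to 7 on the other arrays), while Epcam stayed at or below 26.9. Cdh5 itself had signals of 2607 and 2526 in VEC-positive confluent, 1464 and 1334 in VEC-positive sparse, 2707 and 2509 in VEC-null confluent and 1255 and 1282 in VEC-null sparse cells. No source used here names the deleted part of Cdh5, so these signals cannot serve as a check of the labels. Array copies correlated with r between 0.951 and 0.989, and array medians lay between 140.7 and 175.1 on chip A and between 224 and 251.4 on chip B.

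As a ratio of highest to lowest signal, Gas6 was the member with the widest range. It was highest in VEC-positive confluent cells and lowest in VEC-null sparse cells. In signal units the chip B probe set of Mertk ranged wider, from 716.1 to 3103.4. The only Gas6 probe set (gene on chromosome 8) gave MAS5 signals of 1149.2 and 1332 in VEC-positive confluent cells, 226.5 and 172.7 in VEC-positive sparse cells, 133.8 and 116.9 in VEC-null confluent cells and 16.5 and 20.8 in VEC-null sparse cells. The 4 conditions did not overlap, so their order was the same on both copies. In each comparison between the lines or the densities, 55.8% to 60.4% of all probe sets did not overlap either. Expressed against the other probe sets of chip A, the means stood at percentiles 86.4, 55.5, 44.5 and 16.8 in that order, so the VEC-null sparse level lay among the dim probe sets, and the tables carry no detection calls to say whether it was above background. The closest neighbours in this order were VEC-positive sparse (199.6 ± 38.04, SD, 2 copies) and VEC-null confluent (125.3 ± 11.95), whose copies did not overlap but were separated by a gap about as wide as the SD of the VEC-positive sparse pair.

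**Figure D1:**
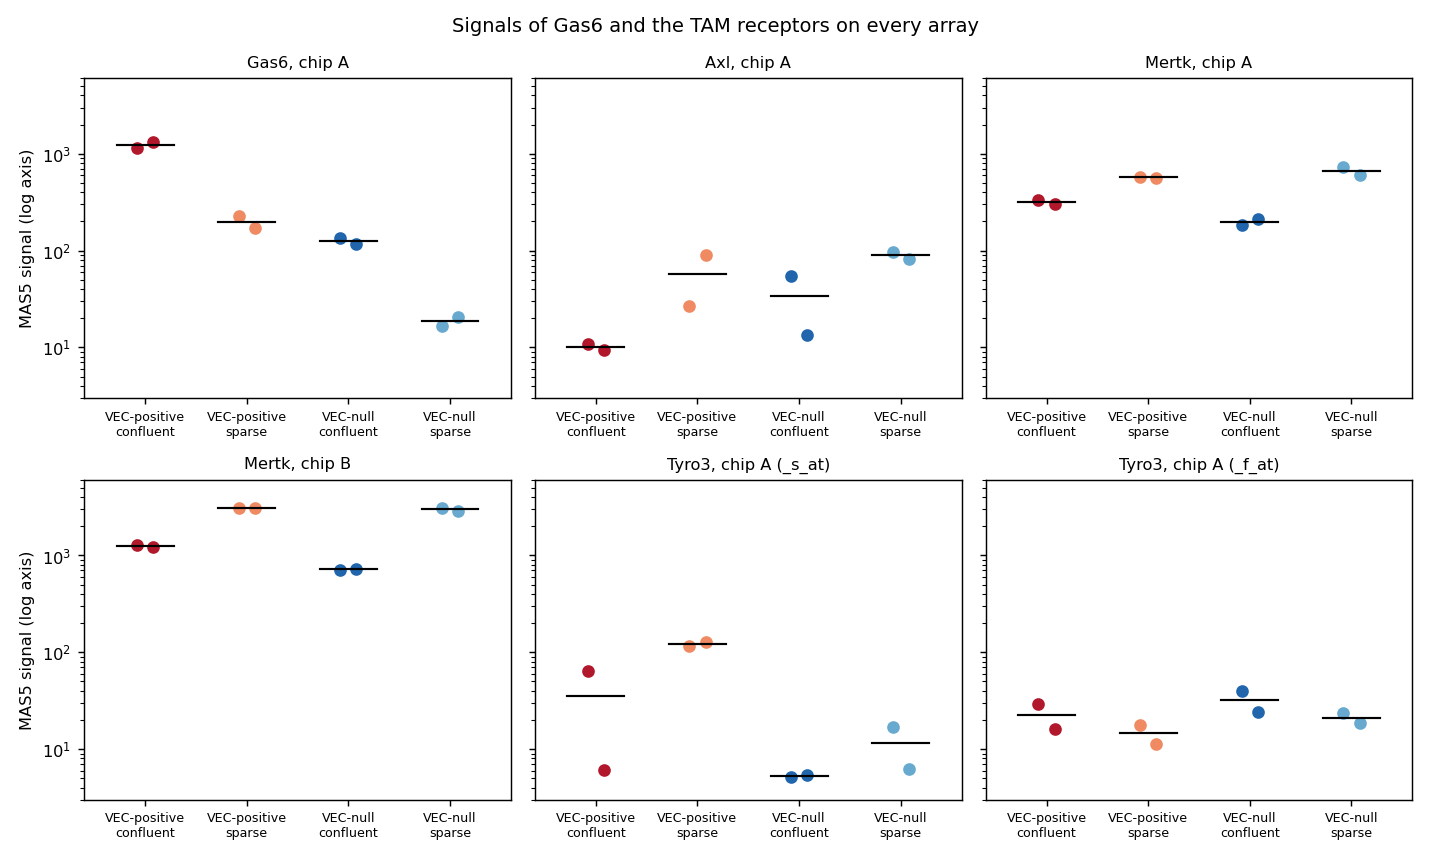
MAS5 signal (log axis) of each member probe set on every array, points for the 2 array copies and bars for their mean, in the 4 conditions. Gas6 is highest in VEC-positive confluent cells (1149.2 and 1332) and lowest in VEC-null sparse cells (16.5 and 20.8), while both Mertk probe sets are lower in confluent than in sparse cells of either line.

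VEC-positive cells had the higher Gas6 signal at both densities. In confluent cells the ratio of mean signals, VEC-positive over VEC-null, was 9.90, and in sparse cells it was 10.7. In signal units the same differences were 1115 when confluent and 181 when sparse. On the scale log2(signal + 50), an offset that damps differences between dim values, the difference was 2.88 (SE 0.17) when confluent and 1.85 (SE 0.17) when sparse. Copies of the compared conditions did not overlap, which was also the case for 55.8% of all probe sets when confluent and 57.9% when sparse. Genes of chromosome 8 as a whole stood higher in VEC-positive cells, with a median log2 difference of 0.29 over 508 genes when confluent and 0.22 when sparse, and the part of this shift in the Gas6 values was not tested.

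Confluent cells had the higher Gas6 signal in both lines. The ratio of confluent over sparse means was 6.22 in VEC-positive and 6.72 in VEC-null cells, and the log2 difference with the offset of 50 was 2.38 (SE 0.17) in VEC-positive and 1.35 (SE 0.17) in VEC-null cells. Copies did not overlap in either line, as for 60.4% of all probe sets in VEC-positive and 60.3% in VEC-null cells. These comparisons share arrays with those between the lines, so the 4 differences are not independent of each other.

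Whether density and line added up or reinforced each other in Gas6 depended on the scale. The density difference of VEC-positive minus that of VEC-null cells was 1.02 (SE 0.24) on the log2 scale with the offset of 50, 0.52 with an offset of 16 and 1.28 with an offset of 200. Without an offset it was -0.11, which reverses the sign. On the plain ratio scale the 2 density responses thus nearly coincided (6.22 in VEC-positive and 6.72 in VEC-null cells), whereas in signal units the gain with confluence was 1041 in VEC-positive cells and 106.7 in VEC-null cells. The value without an offset rests on the dim signals of VEC-null sparse cells, at 16.5 and 20.8.

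**Figure D2:**
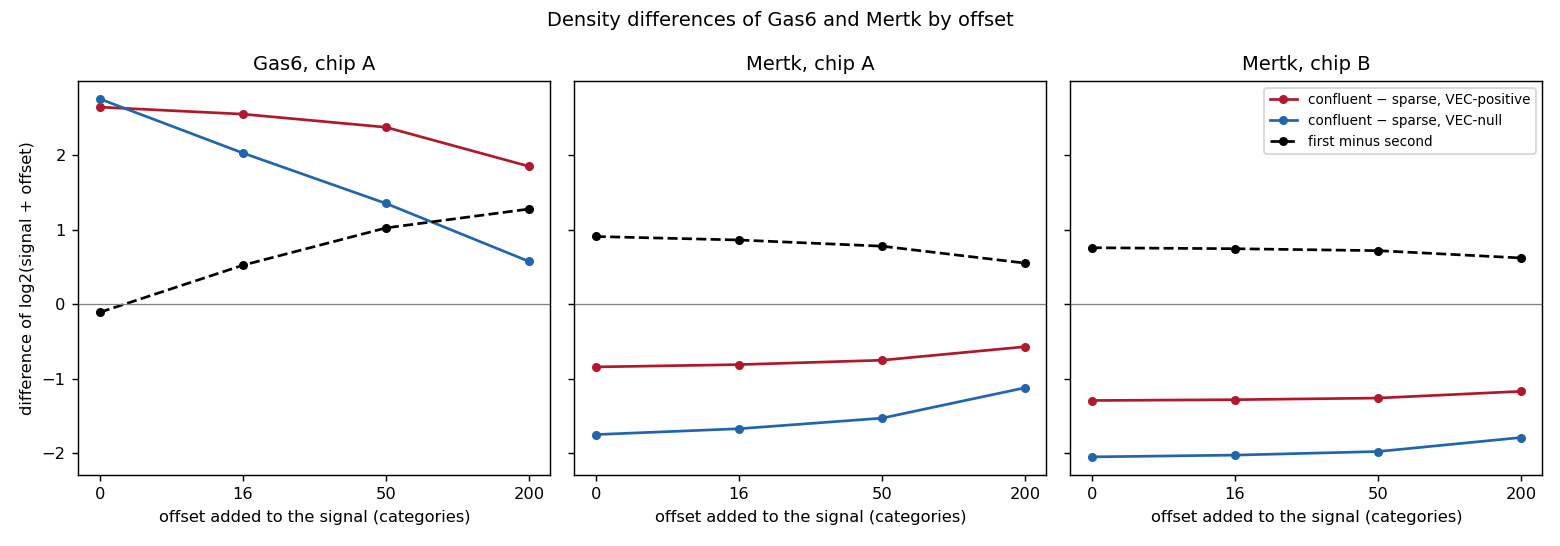
Difference of log2(signal + offset) between confluent and sparse cells (y axis) of VEC-positive (red) and VEC-null cells (blue), and the first minus the second (black, dashed), for offsets of 0, 16, 50 and 200 (x axis, categories), with 1 panel per probe set. For Gas6 the dashed line starts at -0.11 and reaches 1.28, while for both Mertk probe sets it stays above 0 at these offsets.

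Mertk, the receptor best known for the clearance of dying cells, ran opposite to Gas6 with density. Its chip B probe set gave signals of 1295.7 and 1215.4 in VEC-positive confluent, 3085.6 and 3068.9 in VEC-positive sparse, 716.1 and 723 in VEC-null confluent and 3103.4 and 2866.6 in VEC-null sparse cells. Sparse cells of the 2 lines overlapped, and confluent cells were lower than sparse cells in each line. The chip A probe set gave 335.9 and 299.5 in VEC-positive confluent, 570.9 and 567.1 in VEC-positive sparse, 183.9 and 213.1 in VEC-null confluent and 734.2 and 605.1 in VEC-null sparse cells. Both probe sets placed VEC-null confluent cells lowest and VEC-positive confluent cells next, and they disagreed on which sparse cells were highest, where the copies overlapped on chip B. Confluent over sparse ratios of mean signals were 0.408 (chip B) and 0.558 (chip A) in VEC-positive cells, against 0.241 and 0.296 in VEC-null cells.

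The log2 density difference of Mertk was therefore smaller in size in VEC-positive cells, at -1.26 (SE 0.10) on chip B and -0.75 (SE 0.14) on chip A, than in VEC-null cells, at -1.98 (SE 0.10) and -1.53 (SE 0.14). The difference between the lines was 0.72 (SE 0.13) on chip B and 0.78 (SE 0.20) on chip A. Unlike that of Gas6, it kept its sign at offsets of 0, 16 and 200, lying between 0.55 and 0.91 on chip A and between 0.62 and 0.76 on chip B. When confluent, the VEC-positive over VEC-null ratio was 1.74 on chip B and 1.60 on chip A. When sparse it was 1.03 and 0.850. Over the 4 conditions the profiles of the probe sets, each centred on its own mean, differed by a root mean square of 0.27 on the log2 scale. Mertk and Tyro3 lie on chromosome 2, where the median log2 difference between the lines was -0.03 over 704 genes in confluent cells and -0.07 in sparse cells.

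Axl, the TAM receptor with the highest affinity for Gas6, gave low signals on its only probe set (gene on chromosome 7). They were 10.8 and 9.3 in VEC-positive confluent, 26.5 and 89.1 in VEC-positive sparse, 54.8 and 13.3 in VEC-null confluent and 97.2 and 82 in VEC-null sparse cells. The mean was lower in confluent than in sparse cells of both lines, but the copies of VEC-positive sparse cells lay further apart than the means of any compared pair of conditions, and those of VEC-null confluent cells were also far apart. All 4 means lay at or below percentile 42 of chip A, and the probe set did not pass the level filter, which requires 1 condition mean above the chip median (a signal of 159.4 for chip A and 235.1 for chip B). Whether Axl transcript was low in these cells or its probe set responded weakly was not tested.

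Tyro3, the third TAM receptor, had 2 probe sets, neither past the level filter, that did not show the same pattern. The probe set with the suffix _s_at gave 64.3 and 6.1 in VEC-positive confluent, 116.7 and 127.1 in VEC-positive sparse, 5.1 and 5.4 in VEC-null confluent and 16.9 and 6.2 in VEC-null sparse cells. VEC-positive sparse cells were highest and did not overlap the other conditions, as in Krt19, whose part in this was not tested, and in VEC-positive confluent cells 1 of the 2 copies decided the mean. Copies also did not overlap for 57.9% of all probe sets between the sparse lines and 60.4% between the densities of VEC-positive cells. The probe set with the suffix _f_at gave 29.1 and 16.1 in VEC-positive confluent, 17.9 and 11.4 in VEC-positive sparse, 40.2 and 24.3 in VEC-null confluent and 23.6 and 18.4 in VEC-null sparse cells, a narrow range with no high condition. The suffixes of these names mark probes that can bind related transcripts, so the signal of either cannot be assigned to Tyro3 alone.

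Of 87 other genes listed for the TAM pathway, engulfment and growth arrest, 74 had a probe set. The lists were chosen with earlier results of these data known, so the shares and p values below are descriptive. Each gene was read by 1 representative probe set, and 51 of these passed the level filter and were tested with limma. A gene passed at a Benjamini-Hochberg adjusted p under 0.05 over all 14246 kept probe sets and a log2 difference of 1 or more in size, with the offset of 50. In confluent cells 2 genes were higher and 3 lower in VEC-positive than in VEC-null cells, 9.80% of those tested, against 8.05% of all 8946 genes tested. In sparse cells it was 3 higher and 3 lower, 11.8% against a background of 10.2%. With confluence 9 genes rose and 3 fell in VEC-positive cells, 23.5% against 16% of all genes, and 12 rose and 1 fell in VEC-null cells, 25.5% against 17.2%. The density response differed between the lines in 6 genes, 11.8% against 12.9%. With a gene counted as passing where any of its kept probe sets passed, a choice made after seeing the data, 55 genes were tested, and 7, 8, 14, 18 and 9 passed in the 5 comparisons in this order. That was 12.7%, 14.5%, 25.5%, 32.7% and 16.4%, against 9.82%, 12.3%, 18.4%, 19.9% and 15.7% of all 9207 genes read in the same way. Counts below are by the representative, and other kept probe sets that differ from it in a call are named. The list median of the density difference was 0.31 in VEC-positive cells (0.04 over all genes tested) and 0.32 in VEC-null cells (-0.01 over all genes tested).

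Pros1, the other main TAM ligand, was the only 1 of 4 further TAM ligand genes to be tested, and it rose with confluence as Gas6 did. Its signals were 2894.9 and 2310.5 in VEC-positive confluent, 827.1 and 860.7 in VEC-positive sparse, 1562.4 and 1577 in VEC-null confluent and 312.1 and 328.4 in VEC-null sparse cells. The conditions did not overlap, and VEC-null confluent cells stood above VEC-positive sparse cells, the reverse of their order in Gas6. In each comparison between the lines or the densities, 55.8% to 60.4% of all probe sets did not overlap either. The log2 change with confluence was 1.56 in VEC-positive cells (SE 0.12, limma adjusted p 4.1e-06) and 2.13 in VEC-null cells (SE 0.12, limma adjusted p 4.9e-07). VEC-positive cells were higher by 1.27 when sparse (limma adjusted p 3.5e-05), whereas the value of 0.70 when confluent did not pass. The difference between the density responses, -0.57, did not reach the size threshold. Tub, Tulp1 and Lgals3, reported as further ligands of Mertk, gave signals of at most 163.5 on any of their probe sets and were not tested.

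Genes that serve the carboxylation of Gas6 and other Gla proteins mostly did not pass. Ggcx, the carboxylase itself, and Vkorc1 and Vkorc1l1, which recycle vitamin K, passed in none of the 5 comparisons by their representative probe sets, with log2 values between -0.43 and 0.37. Another probe set of Vkorc1l1 was lower in VEC-positive than in VEC-null sparse cells (-1.30, limma adjusted p 0.00074), with signals of 235.2 and 232.3 against 609.9 and 687.3. Calu, whose product calumenin inhibits the carboxylase, fell by 1.10 with confluence in VEC-positive cells (SE 0.08, limma adjusted p 5.1e-06), and its value of -0.90 in VEC-null cells did not pass. Among the other Gla proteins, Prrg2, a membrane protein, rose by 1.18 with confluence in VEC-null cells (limma adjusted p 0.00013), while F7 and Proc passed nowhere. Adam10, a protease that can shed Axl, had density values of 0.97 in VEC-positive and 0.67 in VEC-null cells without passing by its representative. Its other probe set rose by 1.48 in VEC-null cells (limma adjusted p 2.4e-06; 1494.9 and 1520.3 when confluent, against 516.4 and 500.6 when sparse) and had 0.77 in VEC-positive cells. Adam17, which sheds Mertk, was not tested, with signals of at most 90.

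Among 18 tested adaptors and kinases of TAM signalling, 2 rose and 1 fell with confluence in VEC-positive cells, 16.7% against 16% of all genes. In VEC-null cells 1 rose and none fell, 5.56% against 17.2% of all genes. At an unadjusted p under 0.05 by limma 7 were higher and 4 lower in VEC-null cells. Between the lines 1 was higher and 1 lower in VEC-positive confluent cells, 11.1% against 8.05% of all genes. By probe sets other than the representative, the phospholipase gene Plcg1 rose by 1.64 in VEC-positive and 1.18 in VEC-null cells (0.57 and 0.21 by the representative), and Pik3r1, a regulatory subunit of PI3K, rose by 1.56 in VEC-null cells (0.72 by the representative). The exchange factor Vav3 had signals of 881 and 745 in VEC-positive confluent, 83 and 129 in VEC-positive sparse, 1082 and 1059 in VEC-null confluent and 604 and 497 in VEC-null sparse cells. It rose by 2.48 with confluence in VEC-positive cells (SE 0.20, limma adjusted p 6.3e-06) and had a value of 0.91 in VEC-null cells that did not pass, and the difference between the lines passed at 1.57 (SE 0.28, limma adjusted p 0.0027). In sparse cells it was lower in VEC-positive than in VEC-null cells, at -1.95 on the log2 scale. Elmo1, which activates Rac together with Dock1 during engulfment, rose by 1.12 in VEC-positive and 1.36 in VEC-null cells, and Dock1 and Rac1 passed in no comparison. Without copy 2 of VEC-positive sparse cells Elmo1 had 0.973 in VEC-positive cells and did not pass. Pik3cb, a catalytic subunit of PI3K, fell by 1.48 with confluence in VEC-positive cells. In confluent cells Akt2 was higher by 1.09 in VEC-positive than in VEC-null cells (SE 0.13, limma adjusted p 0.00021) and the adaptor Nck2 was lower, at -1.12 on the log2 scale (SE 0.22, limma adjusted p 0.0036), while Akt1, Grb2, Shc1 and Src did not pass there. Akt2 had 0.996 without copy 1 of VEC-null confluent cells and Nck2 had -0.852 without copy 2 of VEC-positive confluent cells, and neither passed.

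Among 9 tested genes of the cytokine and interferon branch that TAM receptors restrain, 2 rose with confluence in VEC-positive and 4 in VEC-null cells. These were 22.2% and 44.4% of the 9, against 16% and 17.2% of all genes. By limma 0 fell in either line, also at an unadjusted p under 0.05. Ifnar1, a subunit of the type I interferon receptor that Axl can associate with, rose by 1.39 in VEC-positive cells and by 2.46 in VEC-null cells, a difference of -1.07 (SE 0.15, limma adjusted p 0.00065). Socs2 rose by 1.97 in VEC-positive and 1.43 in VEC-null cells by the representative, while 2 others had 1.17 and 0.88 in VEC-positive and 0.16 and 1.09 in VEC-null cells, of which the value of 1.17 passed. Socs3, an inhibitor of cytokine receptor signalling, was lower in VEC-positive than in VEC-null cells when confluent, with signals of 178 and 161 against 418 and 440 (-1.12 on the log2 scale, SE 0.16, limma adjusted p 0.00054), and its other probe sets gave -2.04 and -0.76. The first of these, also higher in VEC-positive than in VEC-null sparse cells (1.74), had signals of 135.3 and 24.2 in VEC-positive confluent, 130.7 and 183.2 in VEC-positive sparse, 441.7 and 421.8 in VEC-null confluent and 10.7 and 12.3 in VEC-null sparse cells. Both rose with confluence in VEC-null cells, by 2.97 and 1.51, whereas the representative did not pass there at 0.98. Stat3 and Ifnar2 rose in VEC-null cells by 1.09 and 1.05, and without copy 1 of VEC-null confluent cells they had 0.982 and 0.958 and did not pass. Another probe set of Ifnar2 had 0.68 there and did not pass. The differences between the density responses of Ifnar1 (-0.996 without copy 2 of VEC-positive sparse cells) and Socs3 (-0.907 without copy 1 of them) also lost their call. Socs1 did not pass the level filter.

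Of 10 other tested receptors and bridges for dying cells, 3 rose and 1 fell with confluence in VEC-positive cells, 40% against 16% of all genes. At an unadjusted p under 0.05 by limma 4 were higher and 6 lower there, and the list median was -0.53 (0.04 over all genes tested). In VEC-null cells 5 rose and none passed as lower, 50% against 17.2% of all genes. At an unadjusted p under 0.05 by limma 6 were higher and 2 lower in VEC-null cells, with a list median of 0.83 (-0.01 over all genes tested). These receptors and bridges held the largest density changes of the listed genes. Stab1, a scavenger receptor that binds phosphatidylserine, rose by 4.43 in VEC-positive cells (SE 0.12, limma adjusted p 1e-08) and by 3.92 in VEC-null cells (SE 0.12, limma adjusted p 1.8e-08), although its chip B probe set gave 0.06 and 0.77. Stab2, the related receptor of sinusoidal endothelium, had signals of 3075 and 3180 in VEC-positive confluent, 128 and 370 in VEC-positive sparse, 898 and 776 in VEC-null confluent and 214 and 262 in VEC-null sparse cells. Its rise was 3.54 in VEC-positive and 1.62 in VEC-null cells, a difference of 1.91 (SE 0.45, limma adjusted p 0.012), and it was higher in VEC-positive than in VEC-null cells when confluent by 1.84. Abca1, the cholesterol exporter, rose by 3.81 in VEC-positive and 3.99 in VEC-null cells, and Cd47, a signal against engulfment, rose by 1.42 in VEC-null cells. Edil3, a bridging protein made by endothelial cells, was not tested by its representative. Its chip B probe set gave 6.5 and 33.5 in VEC-positive confluent, 13.6 and 13.8 in VEC-positive sparse, 304.7 and 255.6 in VEC-null confluent and 18.3 and 13.9 in VEC-null sparse cells. It was lower in VEC-positive than in VEC-null confluent cells (-2.26, limma adjusted p 0.0018) and rose by 2.32 with confluence in VEC-null cells. An Anxa1 probe set with the suffix _i_at fell by 1.05 with confluence in VEC-positive cells, where the representative had -0.93, and without copy 2 of VEC-positive sparse cells it had -0.971 and did not pass.

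Lrp1, the engulfment receptor for calreticulin, was highest in VEC-positive sparse cells, with signals of 310 and 373 in VEC-positive confluent, 2173 and 2238 in VEC-positive sparse, 315 and 318 in VEC-null confluent and 237 and 254 in VEC-null sparse cells. It was higher by 2.93 in VEC-positive than in VEC-null sparse cells (SE 0.12, limma adjusted p 3.9e-07) and fell by 2.53 with confluence in VEC-positive cells. Krt19, the epithelial marker given above, was high in the same condition, and its part in the Lrp1 values was not tested. Itgb5, the integrin chain that binds the bridging protein Mfge8, was 1.40 higher in VEC-positive than in VEC-null sparse cells and rose with confluence in VEC-null cells by 1.35, whereas its value in VEC-positive cells was -0.97, a difference of -2.32 (SE 0.21, limma adjusted p 7.7e-05). Its other probe set gave 0.19 between the sparse lines, 0.34 in VEC-null cells and -0.52 for that difference, and did not pass. Mfge8 passed in no comparison. Scarb1, a lipoprotein receptor that also binds phosphatidylserine, was lower in VEC-positive than in VEC-null cells, with log2 differences of -1.67 in confluent and -1.24 in sparse cells.

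Of 5 other tested growth arrest-specific genes, 0 representative probe sets passed between the lines in confluent cells by limma, where 3 had an unadjusted p under 0.05. Of all genes 8.05% passed there. In sparse cells 1 of the 5 passed between the lines, 20% against 10.2% of all genes. With confluence 1 passed in each line, 20% against 16% of all genes in VEC-positive and 17.2% in VEC-null cells. Pmp22, also known as Gas3, was lower in VEC-positive sparse cells (-1.19) and rose with confluence in VEC-positive cells by 1.03. That rise was 0.971 without copy 1 of VEC-positive confluent cells and 0.878 without copy 2 of VEC-positive sparse cells, and did not pass in either case. Gas2, an actin-associated protein, had a log2 change of -1.05 with confluence in VEC-null cells, and of -0.989, which did not pass, without copy 2 of VEC-null confluent cells. Gas5, a non-coding RNA host gene, had values of -0.82 in VEC-positive and -0.73 in VEC-null cells that did not pass. Gas1 did not pass the level filter, nor did the representative of Gas7. The chip B probe set of Gas7 passed it, with signals of 512 and 573.1 in VEC-positive confluent, 402.7 and 270.1 in VEC-positive sparse, 145 and 124.8 in VEC-null confluent and 240.8 and 241.5 in VEC-null sparse cells. It was higher in VEC-positive than in VEC-null confluent cells (1.68, limma adjusted p 0.0005), with density values of 0.64 in VEC-positive and -0.66 in VEC-null cells that did not pass.

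**Figure D3:**
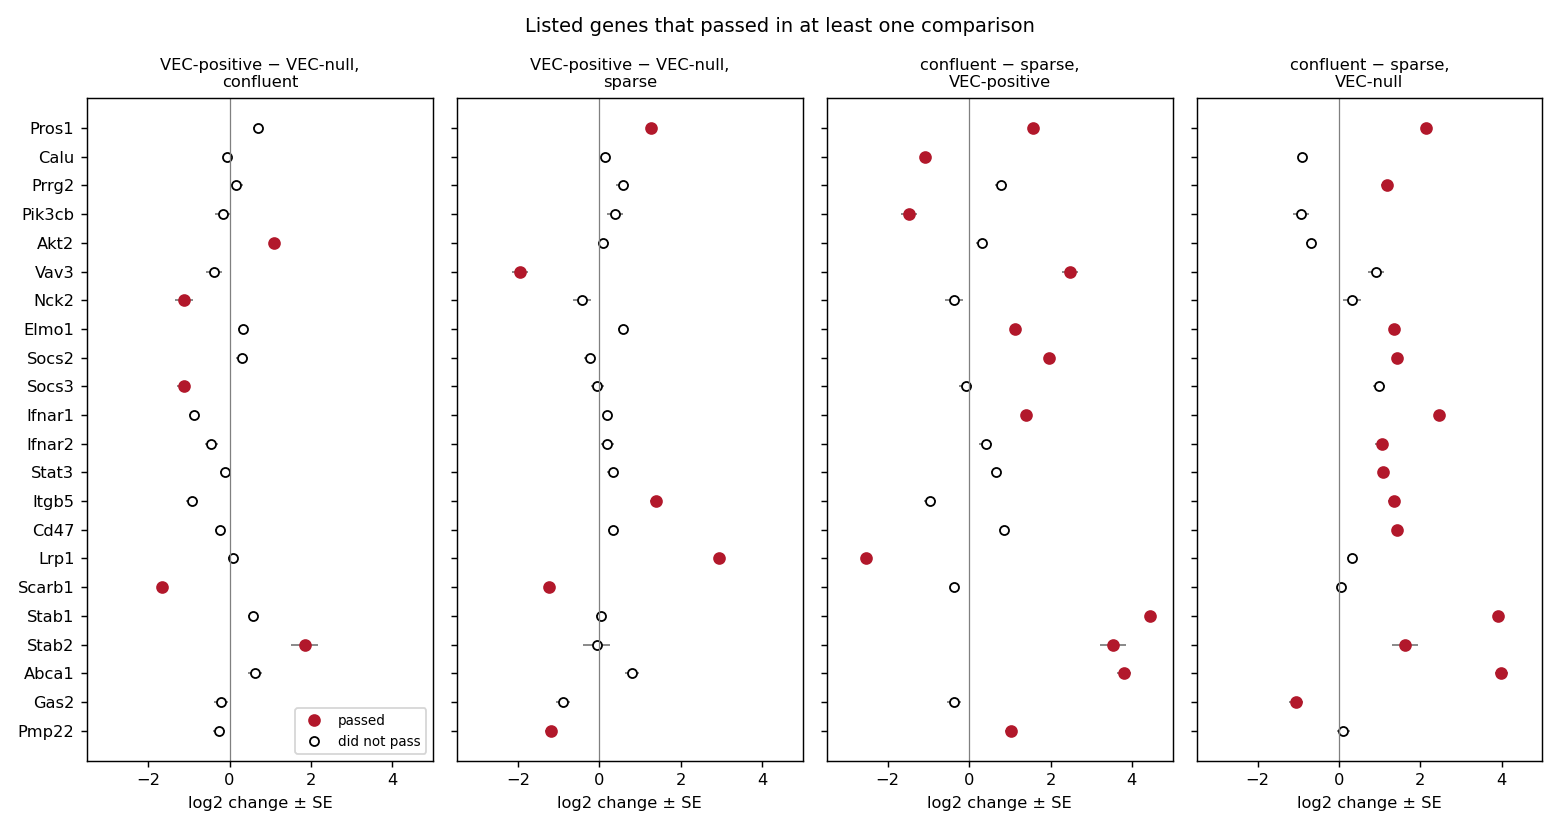
Log2 change (x axis, log2(signal + 50) scale, bars for 1 SE) of the 22 listed genes other than the members that passed in at least 1 comparison by their representative probe set, in the 4 pairwise comparisons. Filled points passed and open points did not. Stab1 and Abca1 have the largest density changes in both lines, and Stab2 comes next in VEC-positive cells only.

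The genes whose 4-condition pattern lay nearest to that of Gas6 were Ebi3, a subunit of interleukin 27, at a root mean square difference of 0.37 on the log2 scale, then Mmrn2, an endothelial matrix protein, at 0.43, and Casp1, the protease of the inflammasome, at 0.45. They were followed by the linker histone gene H1f2 (0.45), Afap1l2 (0.46), the phosphatase gene Ptprb (0.46), C1qtnf6 (0.46) and the sodium-proton exchanger Slc9a9 (0.48). Ebi3 gave 670.7 and 694.8 in VEC-positive confluent, 124.9 and 107.9 in VEC-positive sparse, 145 and 49.3 in VEC-null confluent and 22.1 and 34.2 in VEC-null sparse cells. Likeness was measured over 4 condition means among 12960 probe sets of other named genes that share the arrays, so some lie near by number alone. The other probe sets of Ptprb lay at 0.49 and 0.70, and those of Ebi3 and Casp1 were dim and lay at 1.54 and 1.44.

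Mertk, by its chip B probe set, had closer neighbours. Mfap3l differed by 0.08, Amotl2, an angiomotin family member found at endothelial junctions, by 0.12 and Oxct1, an enzyme of ketone body use, by 0.12. Amotl2 gave 845.5 and 850.3 in VEC-positive confluent, 2124.5 and 1930.7 in VEC-positive sparse, 554.5 and 481.3 in VEC-null confluent and 1659.2 and 1793.9 in VEC-null sparse cells.

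**Figure D4:**
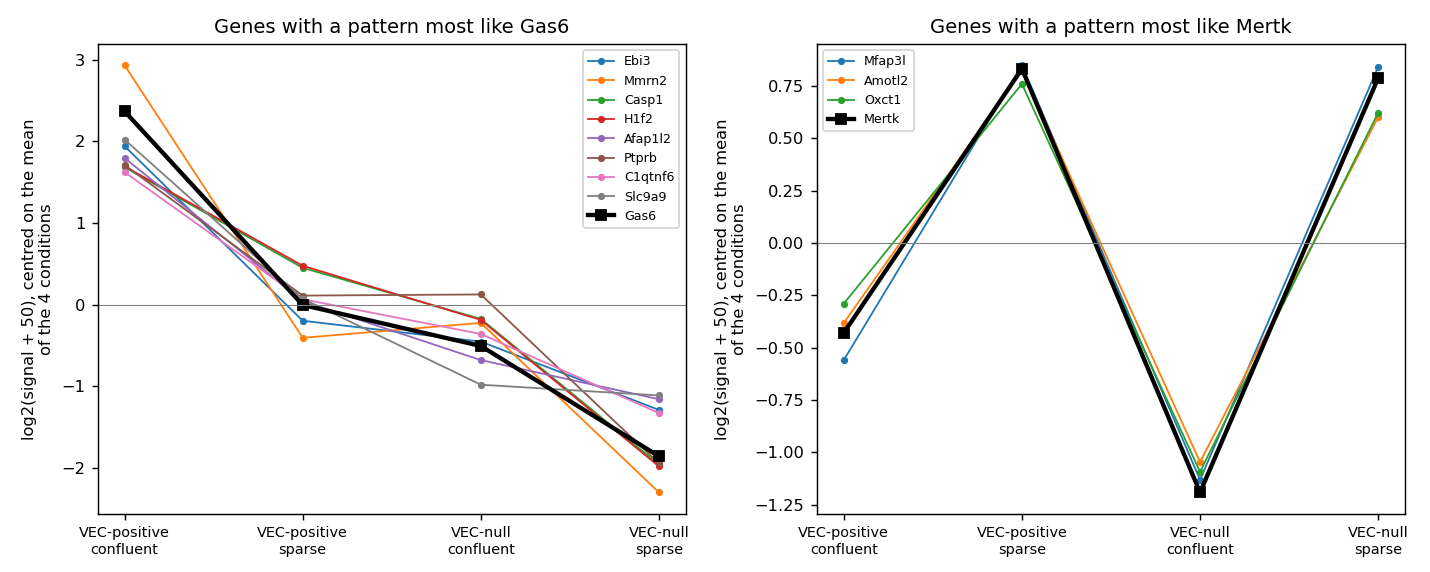
Condition means of log2(signal + 50), each centred on its mean over the 4 conditions (y axis), for Gas6 with the 8 genes nearest to it (left) and Mertk by its chip B probe set with the 3 nearest (right). Gas6 and its neighbours are highest in VEC-positive confluent and lowest in VEC-null sparse cells, and Mertk and its neighbours are lowest in VEC-null confluent cells.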

How the data were processed

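The values are linear intensities deposited by the authors, 1 MAS5 signal for each probe set, made with default parameters and scaling to 500, per the labels. No software version is stated in the sources used here. Columns of samples outside the series numbered 0. Control probe sets (66 per chip) were left out. Gene symbols were those of GEO's annotation of the platform, and 21367 probe sets matched the RefSeq genes of GRCm38.p6 by Entrez identifier. For genes other than the members, the representative probe set was taken from chip A before chip B, then by mean signal; counting a gene by any kept probe set was an alternative added after seeing the data.

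Log2(signal + 50) was fitted per chip over all 4 conditions with limma 3.58.1 (R 4.3.3, variance trend), with 4 residual and about 5.66 (chip A) and 5.59 (chip B) prior degrees of freedom. A probe set was kept (7006 and 7240) if 1 condition mean exceeded the chip median. The fit was tested on simulated data. Alternatives covered the offset, level filter, quantile normalisation, variance trend, replicate block and each array copy left out. The median change of all kept probe sets was at most 0.04 in size, with and without quantile normalisation. Members and lists were chosen with earlier results of these data known. Named genes were the members, the listed genes that passed or that complete a list, and the 8 and 3 nearest patterns.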

Additional observations from a re-analysis of the deposited data

Results flagged for a closer look

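In 6 listed genes, 11.8% of those tested, the density response differed between VEC-positive and VEC-null cells by the interaction test of limma, against 12.9% of all genes tested. The log2 difference (VEC-positive minus VEC-null) was 1.57 for Vav3, -1.07 for Socs3, -1.07 for Ifnar1, -2.32 for Itgb5, -2.84 for Lrp1 and 1.91 for Stab2. Probe sets other than the representative also passed this test, at 1.01 for Socs2, -3.78 for Socs3, -2.21 for Edil3 and 1.29 for Gas7. A further probe set of Socs3 (-0.911) and the other probe set of Itgb5 (-0.525) did not pass it. Nor did Socs2 by its representative (0.54) or by a further probe set (-0.209). Without 1 copy the Edil3 value no longer passed in 3 of 8 cases (-2.10, -2.32 and -2.16, without copy 1 or 2 of VEC-null confluent or copy 2 of VEC-null sparse cells). Gas7 lost its call without copy 2 of VEC-positive confluent cells (1.22). Socs2 lost its call without copy 2 of VEC-null confluent (0.904), copy 2 of VEC-null sparse (0.940), copy 1 of VEC-positive confluent (0.961) or copy 1 of VEC-positive sparse cells (0.992). Mertk by its chip A probe set was higher in VEC-positive than in VEC-null cells on both copies when confluent (0.57 on the log2 scale) and lower on both copies when sparse (-0.21). Copies also did not overlap between the lines, in either direction, for 55.8% of all probe sets when confluent and 57.9% when sparse. The sparse value of Mertk on chip A was smaller in size without copy 1 of VEC-null sparse cells. It was larger in size without copy 2 of them, and kept its sign in both cases. The opposite directions at the densities were not tested, and the chip B probe set overlapped between the lines when sparse.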

How the results depend on the processing

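Gas6 kept its direction between the lines and between the densities under each alternative run. Its log2 difference between the lines was 3.31, 3.15 and 2.14 in confluent cells and 3.42, 2.63 and 0.87 in sparse cells with offsets of 0, 16 and 200. With confluence it was 2.65, 2.55 and 1.85 in VEC-positive and 2.75, 2.03 and 0.57 in VEC-null cells. The difference of the density responses was -0.11, 0.52 and 1.28, and it reversed without an offset, as the offset damps the dim VEC-null sparse signals. With 1 copy left out at a time, Gas6 gave 2.78 to 2.98 (confluent) and 1.70 to 2.01 (sparse) between the lines, 2.22 to 2.53 and 1.28 to 1.42 with confluence in VEC-positive and VEC-null cells, and 0.87 to 1.18 for their difference. The Mertk value between the lines in sparse cells (chip B, 0.044) lay between -0.012, without copy 2 of VEC-null sparse cells, and 0.101, without copy 1 of them.

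With an offset of 200 the probe sets that passed numbered 590 (confluent) and 689 (sparse) between the lines, 1305 and 1444 with confluence in VEC-positive and VEC-null cells, and 1017 for the difference, against 1129, 1382, 2190, 2352 and 1745. A level filter at the 75th percentile left 691 and 913 between the lines. Of the 5 listed genes that passed in confluent cells, 2 passed in number with the offset of 200 and 3 with that filter, where 34 genes were tested, and of 6 for the difference 3 passed with the offset of 200. With 1 copy left out, the listed genes that passed numbered 4 to 5 and 6 to 7 between the lines, 11 to 15 and 12 to 16 with confluence and 6 to 7 for the difference. The replicate numbers did not pair the arrays (correlations of copy deviations between -0.09 and 0.08), and all 42 gene results that passed kept their call with the number as a replicate block, which gave 2.88 for Gas6 in confluent cells. Of these 42, 12 lost it with the offset of 200 (Akt2, Nck2 and Socs3 between confluent lines, Pmp22 between sparse lines and with confluence in VEC-positive cells, Prrg2, Ifnar2, Stat3 and Gas2 with confluence in VEC-null cells, and Vav3, Socs3 and Ifnar1 for the difference) and 2 with quantile normalisation (Pmp22 in VEC-positive and Ifnar2 in VEC-null cells, with confluence), and none reversed under the alternatives run. Signal over background could not be judged without detection calls, which limits Axl, Tyro3 and the lowest Gas6 level.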
